A study of Mus musculus with 12 samples.

Results

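The fetal state of the liver was followed through 8 genes in 12 adult mouse livers. They were Afp, Gpc3, Igf2bp1, Igf2bp3, Lin28b and Hmga2, which are active in fetal liver or liver tumours, and Zhx2 and Zbtb20, a pair of transcription factors that repress such genes after birth. They were chosen by name from what is known of them, and all 8 were found among the 52636 genes in the count tables. The livers came from male C57Bl/6J mice at 16 weeks of age, 6 VDD-F1 mice whose mothers had a diet deficient in vitamin D and 6 VDS-F1 mice whose mothers had a sufficient one. The mothers' diets ran from before mating until delivery. Mothers on the deficient diet were also given calcium gluconate to keep calcium in balance, so the diets differed in this as well. All mothers were fed the sufficient diet after delivery, and all offspring after weaning. RNA was taken from whole tissue of the left lateral lobe with 1 library per mouse, and the litters of the mice are not given in the sources used here. The comparison asks whether the mothers' diet left these genes at another level in the adult liver.

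The fetal liver makes alpha-fetoprotein (Afp) as its main serum protein, and Afp is silenced after birth while the neighbouring albumin gene (Alb) stays on. In the mouse the natural loss of Zhx2 leaves Afp, H19 and Gpc3 partly active in adult liver, and Zbtb20 is a direct repressor of Afp. Lin28b blocks the maturation of let-7 microRNAs, which in turn act on messenger RNAs such as Hmga2 and the Igf2bp family, so these genes and let-7 oppose each other during development. The same genes return in hepatocellular carcinoma, where Afp and Gpc3 serve as tumour markers.

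The promoter of Afp is shown because Afp is the gene on which the results turn. The RefSeq window runs from 250 bases before to 50 after the RefSeq start, at chr5:90490464-90490763 on the plus strand of GRCm38.p6, and capitals mark the TATA box letters TATAAA, searched on both strands.
Afp promoter: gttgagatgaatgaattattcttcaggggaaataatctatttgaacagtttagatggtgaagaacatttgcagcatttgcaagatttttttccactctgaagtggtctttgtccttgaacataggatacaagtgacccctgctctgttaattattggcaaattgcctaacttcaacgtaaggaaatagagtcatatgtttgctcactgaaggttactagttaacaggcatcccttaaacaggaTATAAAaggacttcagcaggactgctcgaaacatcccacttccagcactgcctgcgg

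The match began 7 bases before the RefSeq start and 30 bases before the start of Afp in GENCODE, as the annotated starts differ. Of 32851 promoter windows of this length, 13.6% held these letters, and the Alb window had 0 matches. A match is a stretch of letters and does not show that a factor was bound in these livers.

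The let-7 microRNAs and their matches are shown because 4 of the 8 genes carry them. Capitals mark the seed (bases 2 to 8) of let-7a and, in the 3′ untranslated regions, the letters CTACCTC that pair with it.
mmu-let-7a-5p: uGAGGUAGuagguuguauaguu
Hmga2, chr10:120364214-120364243, minus strand: gacattcaatttCTACCTCagcatcagttg
Lin28b, chr10:45381012-45381041, minus strand: cgggcgggaagtCTACCTCatgcaagcaca
Igf2bp1, chr11:95961768-95961797, minus strand: gtgcgaagtaaaCTACCTCaaggtgtgaag
Igf2bp3, chr6:49086777-49086806, minus strand: atttttactcaaCTACCTCaggtattcagt

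Each line gives the first match after the stop codon in the longest coding transcript, on GRCm38. Hmga2, Lin28b and Igf2bp1 had 4 matches each and Igf2bp3 had 1, while Afp, Gpc3, Zhx2 and Zbtb20 had 0. Within the first 1000 bases of the untranslated region, 6.45% of 10055 genes held a match, and Hmga2, Lin28b and Igf2bp3 each held 1 there. RefSeq lists 11 mature mouse microRNAs with this seed. The microRNAs themselves were not measured here.

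Levels are given as the count of fragments on a gene and as CPM, the count per 1000000 counts of the TMM-adjusted library size. Each library held 14275793 to 20815066 counts on genes, so that 3 counts, used as the limit that a count of 0 allows, equal 0.140 to 0.226 CPM. Genes that averaged 12 or more counts over the libraries were tested with edgeR's quasi-likelihood test, and a differentially expressed gene (DEG) had an adjusted p under 0.05 and a log2 fold change past 1 in either direction. Of 12453 genes tested, 5 were DEGs, or 0.0402%. Of the 8 genes, 4 passed the filter (Afp, Gpc3, Zhx2 and Zbtb20) and 0 were DEGs. Igf2bp1 and Hmga2 were read from the same test on genes with a total count of at least 12. Igf2bp3 and Lin28b reached neither minimum. The defining hepatocyte markers were high in all 12 livers, with Alb at 55809 to 79284 CPM.

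The order of the levels, set per kilobase of exon, was Zbtb20, Zhx2, Gpc3 and Afp, followed by Hmga2 near 0 and 3 genes with a median of 0. The median over the 12 livers was 14.9 CPM per kilobase for Zbtb20, with a range of 10.1 to 20.4. Zhx2 had a median of 7.57 CPM per kilobase and a range of 6.34 to 9.20, which did not overlap that of Zbtb20. The medians of both postnatal repressors lay above those of the fetal genes. Gpc3 had a median of 0.534 CPM per kilobase with a range of 0.153 to 1.02. Afp had a median of 0.195 CPM per kilobase, but its range of 0.0375 to 8.58 took in that of Gpc3, so the order of these neighbours differed between livers. Its highest value, in 1 liver, lay within the range of Zhx2. Alb, next to Afp in the genome, had a median of 28683 CPM per kilobase. Hmga2 had a median of 0.0038 CPM per kilobase, where 1 count in VDS-F1 replicate 4 equalled 0.0077. Its place above the genes at 0 is therefore not settled.

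**Figure D1:**
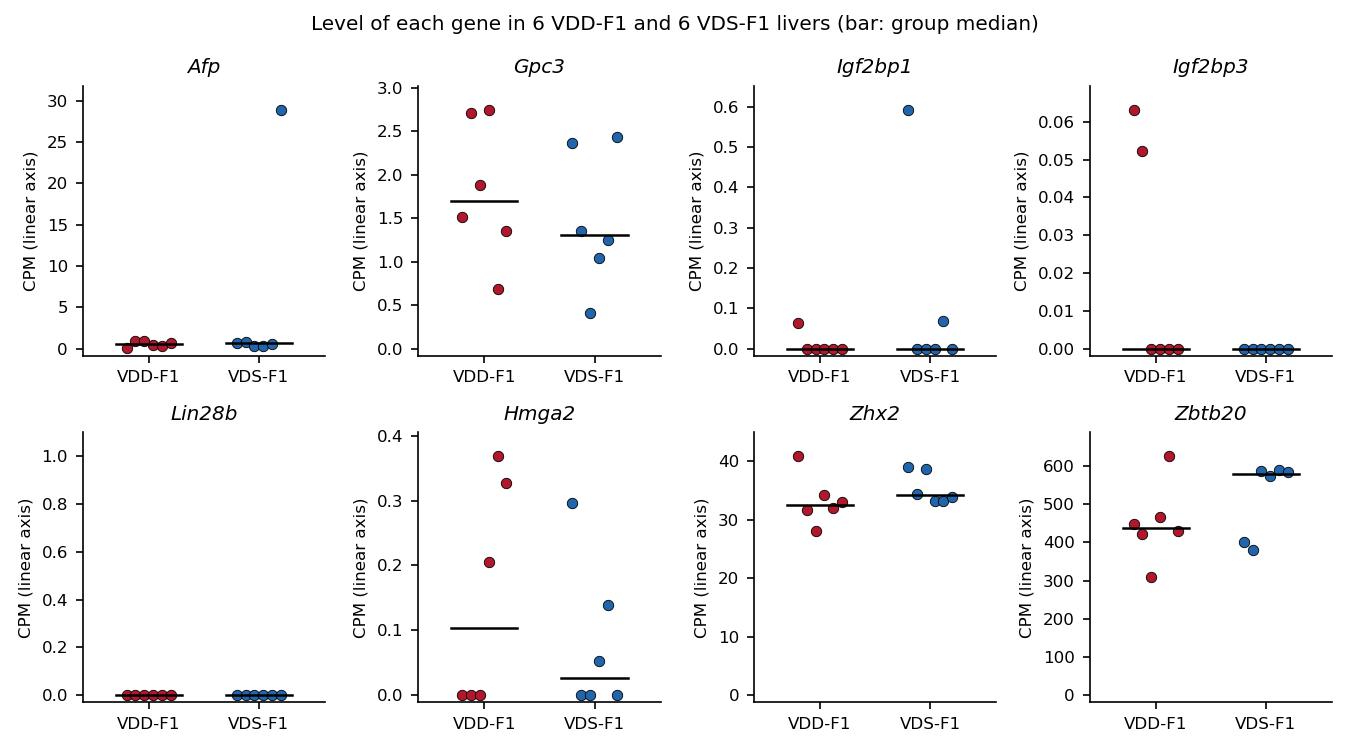
CPM of each of the 8 genes on a linear axis in 6 VDD-F1 and 6 VDS-F1 livers, with 1 point per mouse and a bar at the group median. The groups overlapped for every gene that was detected, 1 VDS-F1 liver had 28.9 CPM of Afp where the others were under 1, and Lin28b was at 0 in all 12.

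Afp encodes the fetal counterpart of albumin and lies on the plus strand at chr5:90490737-90508907 (GRCm38). In the VDD-F1 mice 1 to 6 its counts were 2, 18, 13, 7, 6 and 16, and in the VDS-F1 mice 1 to 6 they were 14, 14, 5, 7, 9 and 404. VDS-F1 replicate 6 (VDS6) stood apart from all others, and the other 11 livers overlapped completely. Its count of 404 has an exact 95% Poisson interval of 366 to 445, which covers counting error only. In CPM, VDD-F1 livers ranged from 0.126 to 0.979 with a median of 0.613, and VDS-F1 livers from 0.344 to 28.9 with a median of 0.658. Without VDS6 the VDS-F1 mean was 0.570 ± 0.210 CPM (SD, n = 5).

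The log2 fold change of Afp, VDD-F1 minus VDS-F1, was -3.11 with a standard error of 1.13 and a 95% interval of -5.54 to -0.69. The unadjusted p of edgeR's quasi-likelihood test was 0.0155 and the adjusted p was 0.206. Among all genes tested, 6.29% were lower in VDD-F1 at an unadjusted p under 0.05 and 9.55% were higher. Afp passed the filter only through VDS6. Without VDS6 its log2 fold change was 0.064 with a 95% interval of -0.95 to 1.08, and the adjusted p of edgeR's test was 0.969. DESeq2 gave Afp no p because it marks a count that far from the rest of its group as an outlier. The value for Afp thus described 1 liver and not the VDS-F1 group.

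The 404 counts of VDS6 lay on the strand of the gene. The reverse-strand count holds fragments in the orientation of the gene, and the forward-strand count those in the opposite one. Forward-strand counts of Afp were 4 to 30 in all 12 libraries, with 30 in VDS6. In the other 11 libraries they made up 35.7% to 93.5% of the stranded counts on Afp, and in VDS6 6.91%. On Alb the forward-strand share was at most 1.03%. In 8 of the other 11 libraries more fragments on Afp ran against the gene than along it, and in VDD2, VDD4 and VDD5 fewer did (10, 5 and 4 against 18, 7 and 6). An antisense gene, Gm43449, overlaps Afp but shares 0 exonic bases with it.

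Among 15 other fetal liver genes, H19 and Igf2 had the same liver at the top. H19 is an imprinted noncoding RNA and Igf2 a fetal growth factor next to it in the genome, and H19 is also a known target of Zhx2. H19 had counts of 2, 47, 14, 8, 18 and 20 in VDD-F1 mice 1 to 6 and 24, 4, 1, 0, 2 and 456 in VDS-F1 mice 1 to 6. Igf2 had counts of 11, 13, 7, 24, 27 and 9 in VDD-F1 and 10, 1, 13, 14, 9 and 179 in VDS-F1. VDS6 was far above the other 11 livers for both genes, and the remaining livers overlapped between groups. In CPM, VDS6 had 32.6 for H19 and 12.8 for Igf2, where the highest of the other livers had 2.45 and 1.65.

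For each of the 12453 genes tested the CPM of the highest liver was divided by that of the second-highest, with the floor of 3 counts in place of lower values, and the median ratio was 1.08. Afp had a ratio of 29.5, H19 one of 13.3 and Igf2 one of 7.77. These ratios are a description: Afp was among the genes tested only through VDS6, and genes under the filter were not examined. Over all livers, 9 of the genes tested had a ratio above 5, of which 3 peaked in VDS6 (Afp, H19 and Igf2) and 6 in VDD-F1 replicate 2 (VDD2), with 0 in the other 10 livers. The fourth gene of VDS6, Gnb1l, had a ratio of 3.35. This count was chosen after the values of Afp had been seen.

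**Figure D2:**
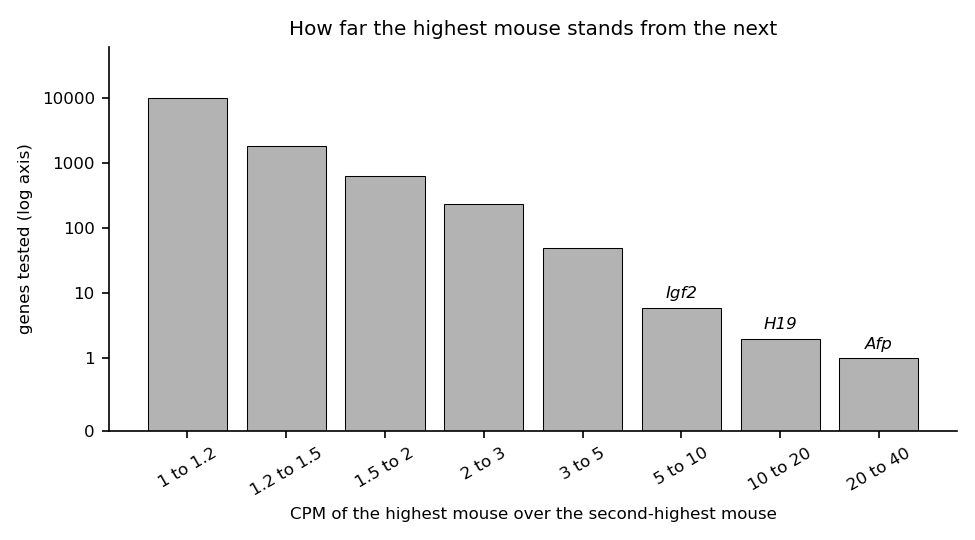
Number of genes tested (log axis) by the ratio of the CPM in the highest liver to that in the second-highest, with the bins that hold Afp, H19 and Igf2 marked. Most genes lay in the first bin, from 1 to 1.2, and Afp was alone in the last.

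VDS6 lay outside the range of the other libraries in several technical values. The share of fragments classed as on no gene feature in the reverse-strand count was 11.1% in VDS6 and 2.52% to 4.94% in the others. Where in the genome these fragments lay was not examined. The reverse strand held 92.7% of the stranded counts of VDS6 against 94.2% to 95.8%. Genes detected in VDS6 numbered 16432, the fewest of all, though VDS-F1 replicate 1 was close at 16457. The mitochondrial ribosomal RNA mt-Rnr2 was highest in VDS6, at 2.69 times the next liver. The part of these values in the result was not tested. Markers of other cell types did not set VDS6 apart: its summed CPM lay within the range of the other 11 livers for the biliary and progenitor, stellate, endothelial, macrophage, mesothelial, proliferation, erythroid and lymphocyte lists. Its summed level of 12 adult hepatocyte genes, 89079 CPM, was the lowest of the 12 livers, where the others had 89315 to 115030. In whole tissue, fewer cells of a type and less RNA per cell cannot be told apart, and neither can a few cells with much Afp and many with little.

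The repressors did not stand apart in VDS6. Zhx2 was at 33.9 CPM in VDS6 and 33.2 to 39.0 in the other VDS-F1 livers. Zbtb20 was at 585 CPM in VDS6 and 380 to 590 in the other VDS-F1 livers. Gpc3 was at 2.43 CPM in VDS6, above the 0.412 to 2.37 of the other VDS-F1 livers but below the highest VDD-F1 liver at 2.75. Myc, a growth regulator in the list of let-7 and Lin28 axis targets, had 25.2 CPM in VDS6 and 2.75 to 7.49 in the other VDS-F1 livers. The VDD-F1 livers had 7.10 to 17.1 CPM of Myc, which overlapped the other VDS-F1 livers at the lower end.

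**Figure D3:**
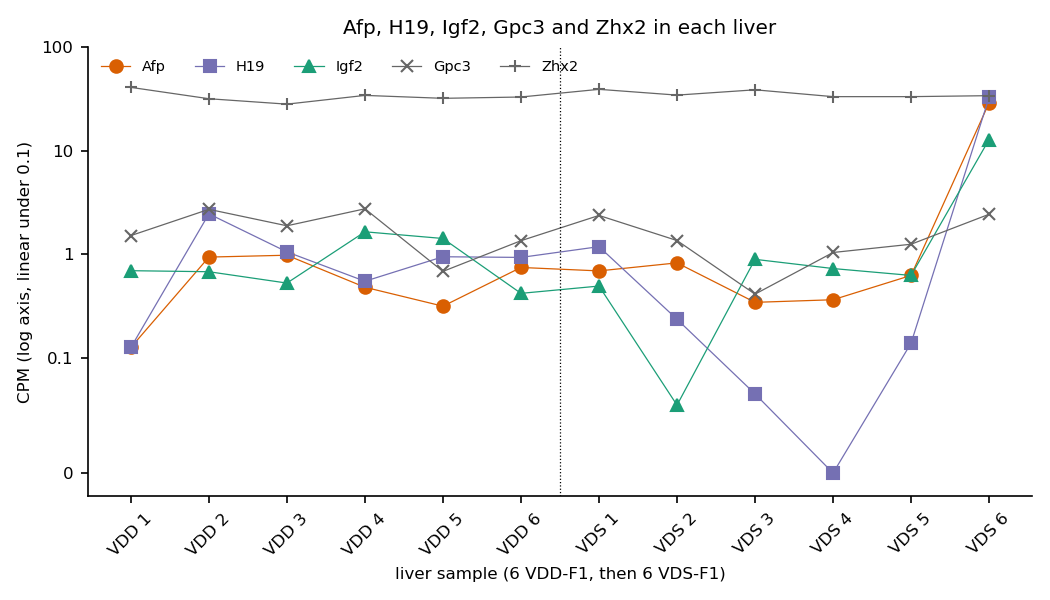
CPM of Afp, H19, Igf2, Gpc3 and Zhx2 in each of the 12 livers on a log axis that is linear under 0.1. Afp, H19 and Igf2 reached 28.9, 32.6 and 12.8 CPM in VDS 6, while Zhx2 and Gpc3 stayed within or near the range of the other livers.

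The genes whose log2 CPM followed Afp most closely over the 12 livers were Anxa6 (Pearson r of 0.93), Lrp12 (0.88) and Numa1 (0.87), with H19 the fourth at 0.86. These values rest on VDS6. The Spearman rho, which takes only ranks, was 0.57 for Anxa6, 0.67 for Lrp12, 0.20 for Numa1 and 0.70 for H19. VDS6 had 158 CPM of Anxa6 where the other livers reached 128, a far smaller step than that of Afp.

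Gpc3 encodes glypican-3, a proteoglycan of the cell surface, and lies on the minus strand at chrX:52272426-52613950. In VDD-F1 mice 1 to 6 its counts were 24, 52, 25, 40, 13 and 29, and in VDS-F1 mice 1 to 6 they were 48, 23, 6, 20, 18 and 34. The groups overlapped over most of their range. The VDD-F1 mean was 1.82 ± 0.808 CPM and the VDS-F1 mean 1.48 ± 0.787 CPM (SD, n = 6 each). The log2 fold change of 0.29 had a 95% interval of -0.59 to 1.17 and an adjusted p of 0.780 by edgeR's test, and the spread within each group was larger than the difference between them.

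The genes closest to Gpc3 by Pearson r were Igfbp5 (0.94), Upk3b (0.94) and Trp53i13 (0.91), each with a Spearman rho of 0.90. Igfbp5 binds insulin-like growth factors, and Upk3b is one of the 5 mesothelial markers listed, genes of the cell layer that covers the liver. The summed CPM of the mesothelial markers was 2.997 to 21.2 in VDD-F1 and 1.99 to 12.4 in VDS-F1. The lowest Gpc3 levels were in VDS-F1 replicate 3 (VDS3) and VDD-F1 replicate 5 (VDD5), which also had the lowest marker sums, 1.99 and 2.997. Upk3b is itself part of the sum (5.58 of 9.87 CPM in VDS6). The sum is therefore not independent of the correlation of Upk3b with Gpc3. All 5 mesothelial markers were detected, 3 of them in every liver. These are correlations over 12 livers that share 1 scaling.

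**Figure D4:**
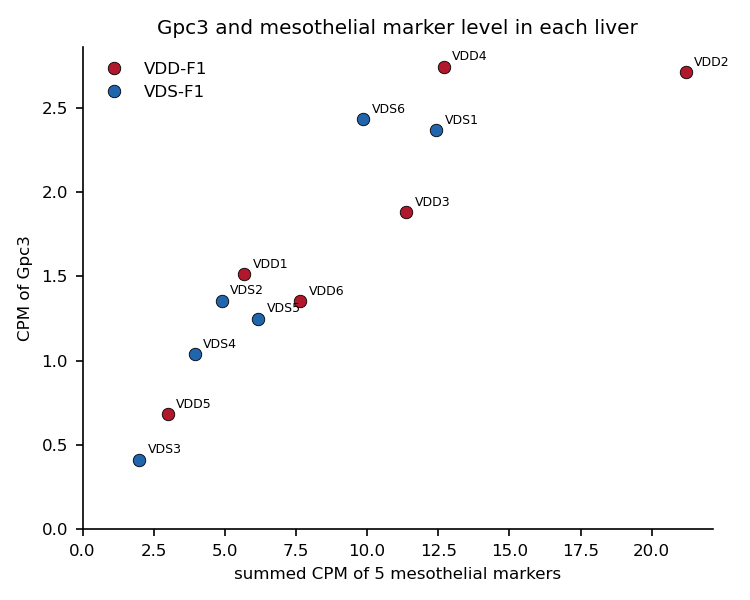
CPM of Gpc3 against the summed CPM of Wt1, Msln, Upk3b, Lrrn4 and Gpm6a in each liver, both on linear axes. VDD-F1 is in red and VDS-F1 in blue. The sum includes Upk3b, which was among the genes closest to Gpc3, so it is not independent of that likeness. VDS3 and VDD5 were lowest on both axes, VDD2 had the highest marker sum and VDD4 the most Gpc3 (2.75 CPM), and the order of livers between them was not the same on both axes.

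Of the other glypicans, 3 of 5 were tested and 0 were DEGs. Gpc4, next to Gpc3 on the X chromosome, was far more abundant, at 88.7 to 119 CPM in VDD-F1 and 118 to 142 CPM in VDS-F1. Its log2 fold change was -0.26 (unadjusted p = 0.00898, adjusted p = 0.167, edgeR), and it had a Pearson r of -0.012 with Gpc3. Gpc1 had a log2 fold change of 0.66 and Gpc6 one of 0.43, with adjusted p of 0.321 and 0.447 by edgeR. The 3 tested glypicans had a median log2 fold change of 0.43, beside 0.0041 over all genes tested.

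The RNA-binding proteins and the chromatin protein of the let-7 axis were at or near the limit of detection. Lin28b (chr10:45376620-45486395), which blocks let-7 maturation, had 0 counts in each of the 12 libraries, a limit of 0.140 to 0.226 CPM per library. Its paralog Lin28a was also at 0 in all 12. Igf2bp3 (chr6:49085223-49214957), which binds and stabilizes target messenger RNAs, had 1 count each in VDD-F1 replicate 1 (VDD1) and VDD2 and 0 elsewhere. Igf2bp3 shares 1529 exonic bases with Malsu1 on the opposite strand, and its forward-strand counts were 5 to 27, so its level can be read only from the stranded count.

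Igf2bp1 (chr11:95957163-96005940), a paralog of Igf2bp3, had 12 counts in VDS-F1 replicate 1 (VDS1), 1 in VDS-F1 replicate 5, 1 in VDD1 and 0 in the other 9 libraries. The 12 counts have an exact 95% Poisson interval of 6.20 to 20.96 and equal 0.592 CPM. The log2 fold change was -2.86 with a 95% interval of -5.73 to 0.012 and an adjusted p of 0.348 by edgeR's test. Without VDS1 it was -0.24 with an adjusted p of 0.956. VDS1 and VDS6, the livers highest in Igf2bp1 and in Afp, were thus different mice, and VDS6 had 0 counts of Igf2bp1.

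Hmga2 (chr10:120361275-120476469), a chromatin protein of embryonic growth, had 0, 0, 0, 3, 7 and 7 counts in VDD-F1 mice 1 to 6 and 6, 0, 0, 1, 2 and 0 in VDS-F1 mice 1 to 6. The highest value was 0.368 CPM in VDD5, where 3 counts equal 0.158 CPM. In the count without strand VDD5 had 3 counts, while VDD-F1 replicate 6 kept its 7. Hmga2 shares 140 exonic bases with an antisense gene, and whether this lowered the count in VDD5 was not tested. The log2 fold change was 0.80 with a 95% interval of -1.51 to 3.11 and an adjusted p of 0.792 by edgeR's test.

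The postnatal repressors were abundant and their intervals were narrow. Zhx2, a zinc-finger and homeobox protein at chr15:57694665-57839832 on the plus strand, had 373 to 706 counts in VDD-F1 and 474 to 791 in VDS-F1. The VDD-F1 livers ranged from 28.1 to 40.8 CPM around a median of 32.4, and the VDS-F1 livers from 33.2 to 39.0 CPM around a median of 34.1. Of the VDD-F1 livers, VDD1 was the highest of all 12 and VDD-F1 replicate 3 (VDD3) the lowest, so the VDS-F1 range lay inside that of VDD-F1. The log2 fold change was -0.089 with a 95% interval of -0.29 to 0.11 and an adjusted p of 0.679 by edgeR's test.

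Its paralogs Zhx1 and Zhx3 were at similar or higher levels. Zhx1, a neighbour on chromosome 15, had group medians of 39.9 CPM (VDD-F1) and 37.4 CPM (VDS-F1), and Zhx3 of 162 and 167 CPM. Their log2 fold changes were 0.098 and -0.016, with adjusted p of 0.695 and 0.966 by edgeR. The genes most like Zhx2 by Pearson r were Paxbp1 (0.89), Gm43437 (0.89) and Arhgef18 (0.88).

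Zbtb20, a zinc-finger repressor at chr16:42875881-43642602 on the plus strand, had 4121 to 11893 counts in VDD-F1 and 6443 to 11027 in VDS-F1. The VDD-F1 livers had 449.4, 421.7, 310.4, 466.4, 625.4 and 428.7 CPM in mice 1 to 6, and the VDS-F1 livers 401.8, 380.2, 588.4, 573.6, 590.5 and 585.3. VDD5 was the highest of all and VDD3 the lowest, and the groups overlapped. The log2 fold change was -0.21 with a 95% interval of -0.56 to 0.14 and an adjusted p of 0.571 by edgeR's test. VDS-F1 replicates 3 to 6 lay within 574 to 590 CPM, while replicates 1 and 2 lay at 402 and 380. The genes most like Zbtb20 were Lpp (0.92), Zcchc7 (0.89) and Adap2 (0.88).

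The split within VDS-F1 followed a division of the mice. A liver weight is recorded for 7 of them (VDD-F1 replicates 4 to 6 and VDS-F1 replicates 3 to 6) and for none of the other 5. This was read from the print beside the liver histology of the same mice, where the VDS mice appear as VSD, and was matched by group and number. Whether the sets mark cohorts is not given in the sources used here. Among the 7, Zbtb20 was at 428.7 to 625.4 CPM in the VDD-F1 livers and 573.6 to 590.5 in the VDS-F1 livers, with a log2 fold change of -0.21 and an adjusted p of 0.309 by edgeR's test. Among the other 5 it was at 310 to 449 and 380 to 402 CPM, with a log2 fold change of 0.014 and an adjusted p of 0.999. The test of the difference between the sets gave an unadjusted p of 0.367 by edgeR. In the 7 mice, 536 of 12453 genes, or 4.3%, were DEGs, and 0 of the 4 genes that passed the filter were among them. Hmga2 had a log2 fold change of 2.47 in the 7 mice and -4.45 in the other 5, where it was seen in VDS1 alone, and the difference had an unadjusted p of 0.0101 and an adjusted p of 0.446 by edgeR.

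**Figure D5:**
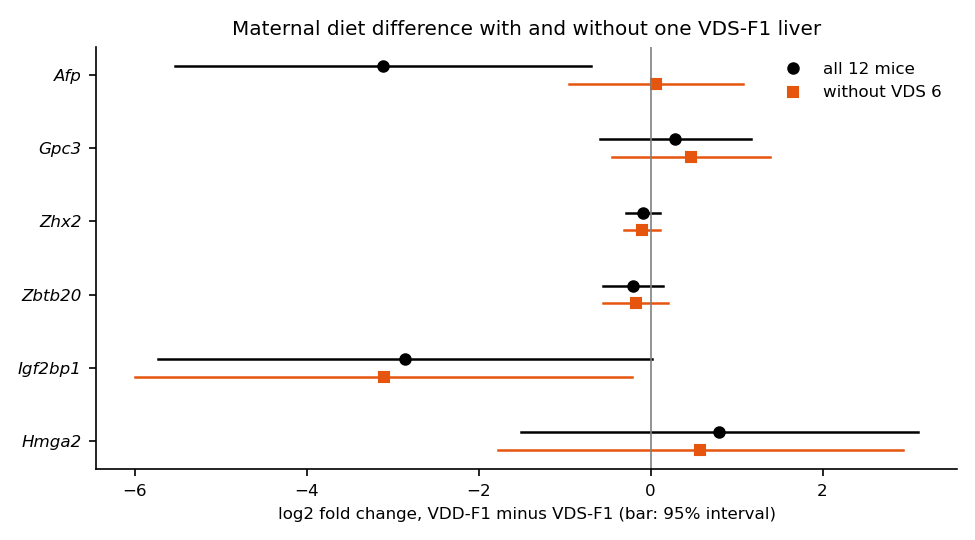
Log2 fold change of 6 of the genes, VDD-F1 minus VDS-F1, with its 95% interval, for all 12 mice (black circles) and without VDS 6 (orange squares). Afp moved from -3.11 to 0.064 without that liver, and the others kept their direction.

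Tests of the 4 genes that passed the filter gave 0 DEGs with edgeR, DESeq2 and limma, and 1 of them, Afp, had an unadjusted p under 0.05 by edgeR. DESeq2 called 253 genes, or 2.03%, and 0 of the 3 genes to which it gave an adjusted p (Gpc3, Zhx2 and Zbtb20). The CPM of the groups did not overlap for 147 of 12453 genes, or 1.18%, and for 0 of the 4.

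Of the 15 other fetal liver genes, 14 were detected, 8 were tested and 0 were DEGs by edgeR over the 12 mice, with 2 higher in VDD-F1 and 0 lower at an unadjusted p under 0.05, where 9.55% and 6.29% of all genes were. DESeq2 over the same mice called the same 2, Scd2 (adjusted p = 0.00653) and Peg10 (adjusted p = 0.0103), beside 2.03% of all genes, and gave H19 and Igf2 no adjusted p. The median log2 fold change of the 8 tested genes of the list was -0.018. Without VDS6 it was 0.60, beside 0.0055 over all genes in that fit. The 2 higher genes were Scd2, a desaturase of fetal and lipid-loaded liver, and Peg10, an imprinted gene. The VDD-F1 livers had 7.89 to 49.9 CPM of Scd2 around a median of 43.5, and the VDS-F1 livers 4.79 to 11.9 CPM around a median of 8.39. VDD1 and VDD3 lay within the VDS-F1 range and the other 4 VDD-F1 livers above it. Its log2 fold change was 1.96 with a standard error of 0.435 (adjusted p = 0.0855, edgeR). Peg10 had 2.02 to 15.1 CPM in VDD-F1 and 1.22 to 3.70 in VDS-F1, with a log2 fold change of 1.68 and an adjusted p of 0.113 by edgeR.

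Within the 7 mice with a recorded weight, 4 of the 8 tested genes of this list were DEGs by edgeR, beside 4.3% of all genes tested. Scd2 (log2 fold change 2.57), Peg10 (2.47) and the imprinted gene Mest (1.12) were higher in VDD-F1, and Igf2bp2 was lower (-2.64, adjusted p = 0.00793). Igf2bp2, the family member that adult tissues keep, had 0.687, 0.0526 and 0.373 CPM in VDD-F1 replicates 4 to 6 and 1.65 to 2.71 in VDS-F1 replicates 3 to 6. In the other 5 mice the groups overlapped, and its log2 fold change over all 12 was -0.94 (adjusted p = 0.4997, edgeR). The test of the difference between sets gave an unadjusted p of 0.0483 for Igf2bp2 and 0.00159 for Peg10, and adjusted p of 0.550 and 0.202, by edgeR. H19 and Igf2 had log2 fold changes of -2.45 and -1.51 over all mice, and 1.55 and 0.68 without VDS6.

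Of 14 let-7 and Lin28 axis targets, 12 were tested and 0 were DEGs by edgeR over the 12 mice, with 3 higher in VDD-F1 and 0 lower at an unadjusted p under 0.05 (9.55% and 6.29% of all genes) and a median log2 fold change of 0.27. DESeq2 called 1 of them, Ccnd1 (adjusted p = 0.00711), beside 2.03% of all genes. In the 7 mice with a recorded weight edgeR called 2, Ccnd1 (log2 fold change 1.59, adjusted p = 0.000281) and Igf2bp2, beside 4.3% of all genes. Among the higher genes were Ccnd1 (2.09, adjusted p = 0.0855), a cyclin of early cell cycle, and Cdc25a (0.58, adjusted p = 0.229), a cell cycle phosphatase, by edgeR. Ccnd1 was at 24.7 to 217 CPM in VDD-F1 and 9.59 to 20.5 in VDS-F1, and the groups did not overlap. This held for 1 of the 12 tested genes of the list and for 1.18% of all genes tested. All 6 proliferation markers were higher in VDD-F1 at an unadjusted p under 0.05, and VDD2 was the highest liver for each of them. Over the 12 mice 0 of the 6 were DEGs by edgeR and 3 by DESeq2 (Mki67, Ccna2 and Ccnb1), and in the 7 mice with a recorded weight, which do not include VDD2, 3 were DEGs by edgeR (Mki67, Ccna2 and Top2a). Their summed level was 82.3 CPM in VDD2, and the other livers were at 5.62 to 23.0 CPM, with a VDD-F1 median of 18.1 and a VDS-F1 median of 7.17. Whether cycling cells had a part in the values of Ccnd1 was not tested.

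The 14 regulators of Afp transcription and Zhx paralogs were all tested, with 0 DEGs by edgeR and by DESeq2, 0 higher and 2 lower in VDD-F1 at an unadjusted p under 0.05, where 9.55% and 6.29% of all genes were higher and lower. One of them was the nuclear receptor Hnf4a (-0.29, adjusted p = 0.301, edgeR), and the median of the list was -0.13. Hnf4a, a main regulator of adult hepatocyte genes, was at 529.6 to 732.0 CPM in the VDD-F1 livers and 571.1 to 901.5 in the VDS-F1 livers, and the groups overlapped. The 5 other targets of Zhx2 or Zbtb20 had 0 DEGs by edgeR over the 12 mice, 1 gene higher and 1 lower at that threshold. Lpl, a lipase that adult liver normally keeps low, had a log2 fold change of 2.14 (adjusted p = 0.0918), and Mlxipl, a sugar-responsive transcription factor, -0.57 (adjusted p = 0.145), by edgeR. Lpl was a DEG by DESeq2 (adjusted p = 0.0121) and by edgeR in the 7 mice with a recorded weight (log2 fold change 2.61), where 2.03% and 4.3% of all genes were. Alb, Afm and Gc, which share a gene cluster with Afp, had log2 fold changes of 0.24, -0.035 and 0.038, and VDS6 was not the highest liver for any of the 3. Of the 12 adult hepatocyte genes 0 were DEGs over the 12 mice by edgeR or DESeq2 and 1, the cytochrome Cyp2e1, was lower at an unadjusted p under 0.05 (-0.75, adjusted p = 0.174, edgeR). In the 7 mice with a recorded weight Cyp2e1 was a DEG by edgeR (log2 fold change -1.27, adjusted p = 0.000119).

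The markers of other cell types gave the following background to these values. At an unadjusted p under 0.05, 3 of 7 tested biliary and progenitor markers and 3 of 8 stellate cell markers were higher in VDD-F1 and 0 lower, 1 of 5 mesothelial markers was higher, and 0 of these were DEGs by edgeR over the 12 mice. The collagen gene Col1a1, a stellate cell marker, was a DEG by DESeq2 (adjusted p = 0.00825), and in the 7 mice with a recorded weight Col1a1 (log2 fold change 2.67) and the biliary and progenitor marker Epcam (1.32) were DEGs by edgeR, beside 2.03% and 4.3% of all genes. Over all genes tested, 9.55% were higher and 6.29% lower at that threshold. Of 6 endothelial markers 1 was higher and 2 were lower, and of 6 macrophage markers 1 was lower. The 6 tested erythroid markers and 2 tested lymphocyte markers gave 0 in either direction. All 8 erythroid markers were detected, with a summed level of 254 to 667 CPM in VDD-F1 livers and 224 to 1298 CPM in VDS-F1 livers.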

How the data were processed

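Liver RNA-seq from 12 mice was analysed. The authors removed adapters and failed reads, used STAR on mm10 (GENCODE M15, GRCm38), and deposited raw, unnormalized counts per gene, 1 without regard to strand and 1 for either strand. The reverse-strand count was used. Symbols, positions and exon lengths came from GENCODE M21, which matched 52489 of 52636 genes, and the microRNA and promoter sequences from RefSeq (GRCm38.p6), where 6 of the 8 genes had a promoter entry.

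Counts were compared with edgeR 4.0.16 in R 4.3.3 (TMM, quasi-likelihood in the legacy form, Benjamini-Hochberg adjustment over all genes) for genes averaging at least 12 counts, the study's minimum. The study's methods name DESeq2, which was run as an alternative (1.42.0), as was limma 3.58.1. Log2 CPM used a prior count of 2. Sums, correlations and intervals were computed in Python 3.11.15 (SciPy 1.17.1, NumPy 2.4.6, pandas 2.3.3) and plots drawn with matplotlib 3.10.9. The test scripts were tested on simulated data. All 8 genes are named. Of each list at most 5 are named, by DEG call and then smallest p, beside paralogs, neighbours, H19 and Igf2, and the 3 genes most like each tested gene. Myc and Gnb1l were named after their values were seen. Some list genes are not reported here by name. The genes and lists were chosen with earlier results of these data known, and some lists share genes. Same replicate numbers mark different mice.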

Additional observations from a re-analysis of the deposited data

Results flagged for a closer look

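In groups of 6 livers, a level was singled out where the gap between the highest or lowest liver and its neighbour took more than Dixon's critical share of the group's range. Chance gives about 1 in 20 groups. Of 83 groups tested 16 met this, but some of these genes were picked for their likeness to the 8 genes, so the count was not compared with chance. Among the 8 genes these were Afp in VDS6 (28.9 CPM, where the next VDS-F1 liver had 0.826), Igf2bp1 in VDS1 (0.592 CPM, next 0.0694) and Igf2bp1 in VDD1 (0.0631 CPM, which is 1 count against 0 in the rest).

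VDS6 was also the liver apart for H19 (32.6 CPM, next 1.18), Igf2 (12.8 CPM, next 0.893) and Myc (25.2 CPM, next 7.49). It was apart for Anxa6 (158 CPM), Numa1 (117 CPM) and Lrp12 (9.94 CPM), but these were picked for their likeness to Afp. VDS1 was apart for Igf2bp2 (4.94 CPM) and Gpm6a (3.06 CPM), and VDS2 for Mest (3.89 CPM). VDD2 was apart for Ccnd1 (217 CPM, next 51.7) and Gpc1 (70.0 CPM, next 34.0). Paxbp1, picked for its likeness to Zhx2, was apart in VDD1 (10.8 CPM) and VDS3 (8.87 CPM).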

How the results depend on the processing

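Of the genes followed, Afp, Gpc3, Zhx2 and Zbtb20 were tested in every alternative, except that DESeq2 gave Afp no p. Igf2bp1 and Hmga2 were tested where the filter allowed, Igf2bp3 with no filter beyond 1 count, and Lin28b in none. Of these tests 0 gave a DEG, and 3 log2 fold changes turned. Afp went from -3.11 to 0.064 without VDS6 (leaving out any other mouse gave down to -3.36, and the 7 mice with a recorded weight -3.81), Hmga2 from 0.80 to -4.45 in the 5 mice without a recorded weight, and Zbtb20 from -0.21 to 0.014 in the same mice. Igf2bp1 kept its direction in 22 alternatives, from -4.08 to -0.24, the last without VDS1. Gpc3 stayed between 0.098 and 0.48 and Zhx2 between -0.16 and -0.046 in 23 alternatives each. An unadjusted p under 0.05 was reached by Afp in 17 of 23 alternatives, by Igf2bp1 in 7 of 22 and by Hmga2 in 1 of 22, and by Gpc3, Zhx2 and Zbtb20 in 0 of 23 each. Afp had a log2 fold change of -0.94 with voom and limma.

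The number of DEGs among all genes moved from 5 to 253 with DESeq2's Wald test, 13 with voom and limma, 17 with the newer quasi-likelihood form, 21 with the set of mice as covariate, 536 in the 7 mice with a recorded weight, 0 in the other 5 (472 genes at an unadjusted p under 0.05 by edgeR) and 70 with no filter beyond 1 count. Leaving out each mouse gave 0 to 260, the highest without VDD1, followed by 93 without VDD3. The causes were not tested. DESeq2's size factors and the count without strand gave 4 each and a total count of at least 12 gave 7.

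The replicate numbers do not pair the mice: same-numbered mice had correlations of their deviations from -0.076 to 0.10. With a replicate block 17 genes were DEGs, 0 of them among the genes followed, and Afp had a log2 fold change of -1.16.

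The medians over lists were recomputed without VDS6 after seeing the data, and the other fetal liver genes moved most, from -0.018 to 0.60. By Spearman's rho in place of Pearson's r, 0 of the 3 genes most like Afp, Zhx2 and Zbtb20 were shared. For Gpc3, Snx30 came first by rho (0.93) and the 3 genes named by r were tied behind it (0.90). Igf2bp3, Igf2bp1 and Hmga2 had at most 12 counts in any library, and Lin28b, at 0 in all 12, could not be compared at this depth.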
